A study of Mus musculus with 6 samples.

Results

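The genes of glycolysis and of the hypoxia response were examined in slow-cycling chondrocytes of the mouse growth plate. The group was taken as a list of 37 named genes among the 23159 genes of the count table. It comprised 4 transporters, 18 glycolytic enzymes, 8 regulatory kinases and 7 hypoxia regulators. All 37 genes had enough reads to be tested, among 13728 genes in all. LRCs (label-retaining chondrocytes) were compared with non-LRCs from the same experiment, in 3 independent experiments with 1 library of each cell population. Both populations came from growth plates of the femur and tibia of mice at postnatal day 49 (P49), homozygous for Peli2(Col2a1-tTA), Col1a1(TRE-H2B-GFP), Col2a1-creER and R26R(tdTomato). All mice received doxycycline from P21 to P49, which shuts off new H2B-GFP so that dividing cells dilute the label, and tamoxifen at P46 and P47. LRCs were H2B-GFP(high)tdTomato+ cells and non-LRCs were H2B-GFP(mid-low)tdTomato+ cells, both CD45-negative. About 10000 LRCs and 50000 non-LRCs, pooled from several littermates, went into each library. The Col2a1 promoter drove both tTA and creER.

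Glycolysis splits glucose into pyruvate, and lactate dehydrogenase turns pyruvate into lactate. Growth plate cartilage has no blood vessels, and its chondrocytes are known to depend on glycolysis and on the hypoxia-inducible factors HIF-1α and HIF-2α. Prolyl hydroxylases mark both factors for degradation when oxygen is present. When oxygen is scarce, the factors bind short DNA elements near target genes, which include many genes of glucose uptake, glycolysis and lactate export.

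Total counts per library ranged from 18943789 to 129559872. The LRC library of experiment 2 was the shallowest, with 1731 of the tested genes at a count of 0 against 4 to 365 in the other libraries. CPM, the usual depth-scaled count, was computed with library sizes normalised by TMM. Chondrocyte markers such as Col2a1 and Acan summed to between 90663 and 259939 CPM, and 11 of the 12 had a fitted log2 change below 0 in LRCs. The blood marker Ptprc (CD45) was at 0 in all libraries except 1 LRC library, where it reached 0.233 CPM, and endothelial markers summed to at most 1.18 CPM. A set of 8 genes of superficial articular cartilage, Prg4 among them, summed to 1630 to 3443 CPM in LRCs and to 286 to 458 CPM in non-LRCs. The median log2 change of all genes tested, LRCs over non-LRCs, was -0.10. In bulk RNA, fewer cells expressing a gene and less RNA per cell cannot be told apart.

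The sequences just upstream of 5 of the genes are shown because they differ in the core letters of the hypoxia response element. All 5 had an unadjusted p below 0.05 (edgeR), but they were not the 5 lowest. Pgam1, Tpi1 and Aldoc, whose windows are not shown, had 0.0041, 0.0123 and 0.0135, against 0.0136 for Ldhb. Windows of 250 bases upstream of the RefSeq start (GRCm38.p6) were read 5′ to 3′ on the strand of the gene. Capitals mark ACGTG and GCGTG on either strand (as CACGT and CACGC on the opposite one).
Pgk1 promoter (chrX:106186850-106187099, + strand): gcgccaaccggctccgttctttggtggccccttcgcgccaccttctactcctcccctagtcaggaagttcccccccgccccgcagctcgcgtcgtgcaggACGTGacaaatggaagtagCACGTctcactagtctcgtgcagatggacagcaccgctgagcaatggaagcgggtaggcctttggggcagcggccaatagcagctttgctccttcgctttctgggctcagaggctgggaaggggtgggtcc
Ldha promoter (chr7:46845554-46845803, + strand): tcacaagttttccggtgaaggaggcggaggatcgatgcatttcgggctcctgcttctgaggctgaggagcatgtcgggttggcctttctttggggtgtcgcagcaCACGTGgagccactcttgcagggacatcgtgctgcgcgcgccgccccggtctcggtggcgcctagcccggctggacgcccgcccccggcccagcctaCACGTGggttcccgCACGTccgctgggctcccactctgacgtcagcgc
Bnip3 promoter (chr7:138909507-138909756, - strand): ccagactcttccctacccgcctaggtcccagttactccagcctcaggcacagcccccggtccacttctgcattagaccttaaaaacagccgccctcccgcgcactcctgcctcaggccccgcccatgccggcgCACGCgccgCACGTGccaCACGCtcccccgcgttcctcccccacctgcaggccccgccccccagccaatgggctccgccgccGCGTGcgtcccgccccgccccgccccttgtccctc
Ldhb promoter (chr6:142507958-142508207, - strand): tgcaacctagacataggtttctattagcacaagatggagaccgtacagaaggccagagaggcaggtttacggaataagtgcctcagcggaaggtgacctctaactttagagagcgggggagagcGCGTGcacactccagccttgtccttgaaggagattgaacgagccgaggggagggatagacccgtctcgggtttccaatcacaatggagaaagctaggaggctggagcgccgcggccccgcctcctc
Pfkp promoter (chr13:6648772-6649021, - strand): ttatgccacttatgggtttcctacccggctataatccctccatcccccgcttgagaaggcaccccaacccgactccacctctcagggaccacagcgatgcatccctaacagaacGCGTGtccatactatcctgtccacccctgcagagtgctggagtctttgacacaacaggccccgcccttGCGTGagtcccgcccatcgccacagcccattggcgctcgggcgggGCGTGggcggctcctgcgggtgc
The Pgk1 window held ACGTG once on each strand, starting 150 and 131 bases before the start. The Ldha window held CACGTG in 2 places, where ACGTG is read on both strands at once, and 1 more CACGT. A second annotated Ldha start, not shown, had no ACGTG upstream. The Bnip3 window held CACGTG once and GCGTG or its complement 3 times. The Ldhb and Pfkp windows held no ACGTG, and held GCGTG once and 3 times. These 5 genes were picked with their changes known. Among other genes lower in LRCs (edgeR, unadjusted p below 0.05), Tpi1 and Aldoc held no ACGTG, and Pgam1, Slc16a3 and Pdk3 held it. Slc2a1, higher in LRCs at that level, held 1 ACGTG. Whether these letters go with the direction of change was not tested. RefSeq windows were found for 35 of the 37 genes. Epas1 and Slc2a3 had none in the table. Several genes have more than 1 annotated start, so that 35 genes gave 55 windows. ACGTG was present in 43.6% of these windows, against 21.1% of the windows of genes tested and 16.6% of all windows in the table. GCGTG was present in 52.7% of the members' windows, against 43.3% of the windows of genes tested and 28.2% of all windows. CACGTG, which contains ACGTG on both strands, was in 14.5% of the members' windows and in 8.09% of those of genes tested. These matches describe letters in a window and not bound sites.

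Among the 37 genes, 1 passed the test across all genes, Pgk1, which was lower in LRCs (edgeR, adjusted p = 0.0484). Over all genes tested, 1.28% were called at an adjusted p below 0.05, 0.379% lower in LRCs and 0.903% higher. At an unadjusted p below 0.05, 8 of the 37 genes (21.6%) were lower in LRCs, where 9.53% of all genes tested were. In the other direction 4 of the 37 (10.8%) were higher, where 8.89% of all genes were. The genes lower at this level were Pgk1, Ldha, Pgam1, Tpi1, Aldoc, Bnip3, Slc16a3 and Pdk3, and those higher were Pfkp, Ldhb, Epas1 and Slc2a1. By sign alone, 12 of the 37 (32.4%) were lower in LRCs in all 3 experiments, against 26% of all genes tested, and 6 (16.2%) were higher in all 3, against 20.4%. All LRC libraries lay below all non-LRC libraries for 7 of the 37 (18.9%), against 10.3% of all genes, and above them for 3 (8.11%), against 8.41%. The share that was higher in LRCs was therefore close to that of all genes by each of these counts. DESeq2 with the same experiment term called 6 of the 37 lower (16.2%), where it called 6.15% of all genes lower, and 3 higher (8.11%), where it called 6.16% higher. The 6 were Pgk1, Ldha, Pgam1, Tpi1, Aldoc and Bnip3, and the 3 were Pfkp, Ldhb and Epas1. Experiments often differed from each other more than the populations did. For 25 of the 37 genes (67.6%) the experiments' mean levels spanned more than the mean change between LRCs and non-LRCs, as for 74.8% of all genes tested.

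**Figure D1:**
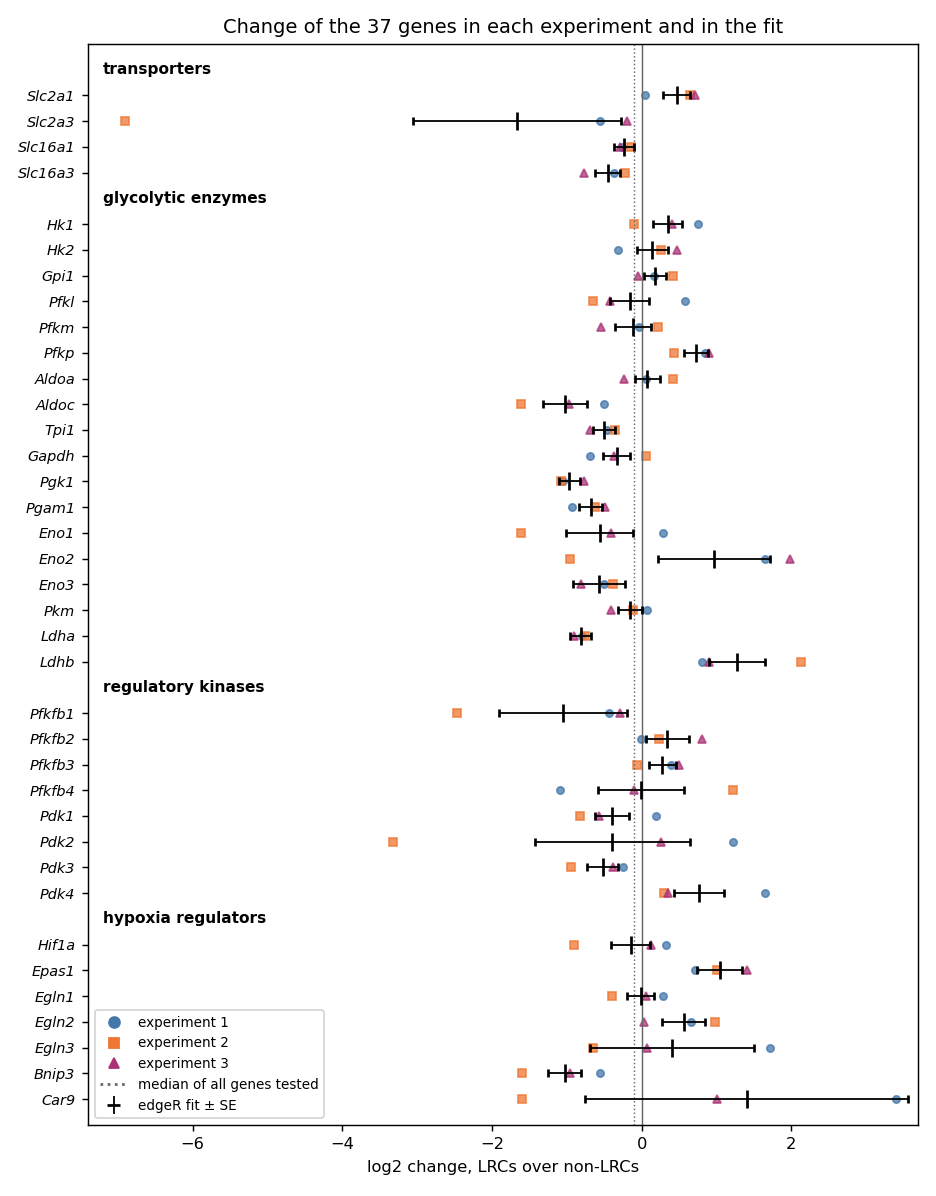
Log2 change of each of the 37 genes, LRCs over non-LRCs, on the horizontal axis, with 1 point per experiment and a black mark for the edgeR fit ± SE. Pgk1, Ldha and Pgam1 had 3 points close together and below 0, whereas genes with few reads such as Slc2a3, Pdk2 and Car9 spread widely. The point of Slc2a3 at the far left comes from a library with a count of 0 and depends on the prior count of 2.

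Pgk1, which encodes phosphoglycerate kinase, the first ATP-yielding step of glycolysis, fell in LRCs. The gene lies at chrX:106187100-106203699 on the + strand (GRCm38). Its level in the LRC libraries of experiments 1, 2 and 3 was 217, 332 and 331 CPM. In the non-LRC libraries of the same experiments it was 451, 699 and 563 CPM. Every LRC library lay below every non-LRC library. The log2 change was -1.05, -1.08 and -0.77 in the 3 experiments. In the fit the log2 change was -0.97 ± 0.14 (SE, n = 3 pairs), or 1.95-fold higher in non-LRCs (edgeR, adjusted p = 0.0484). The call was lost without experiment 1 and when the experiment was left out of the model. Of the 50-base windows of its longest coding transcript, 68.0% also occurred in transcripts of other genes, most often of Pgk1-rs7. The authors counted non-ambiguous reads only, so that the absolute level of Pgk1 is uncertain.

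Ldha is the subunit of lactate dehydrogenase that prevails in glycolytic tissue. Per length of exons merged over all transcripts, it had the highest level of any of the 37 genes in non-LRCs. It reached 704 CPM per kilobase there, against 400 CPM per kilobase in LRCs. It measured 1034, 1587 and 1351 CPM in LRCs of experiments 1, 2 and 3. In non-LRCs it measured 1794, 2671 and 2526 CPM. The populations did not overlap. The change was very even, -0.80, -0.75 and -0.90 on the log2 scale in the 3 experiments. The fitted log2 change of -0.82 ± 0.14 (SE) did not pass the threshold in edgeR (adjusted p = 0.0608).

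Pgam1, phosphoglycerate mutase, the step after phosphoglycerate kinase, gave 323, 569 and 498 CPM in LRCs and 614, 879 and 701 CPM in non-LRCs. Again no LRC library reached the lowest non-LRC library. Its fitted log2 change was -0.68 ± 0.15 (edgeR, adjusted p = 0.0934). Of the 50-base windows of Pgam1, 41.5% also occur in transcripts of other genes. Tpi1, the triosephosphate isomerase that lets both products of the aldolase step enter the later steps, gave 283, 504 and 371 CPM in LRCs and 392, 646 and 597 CPM in non-LRCs. Within each experiment the LRC library was the lower of the pair, although the populations overlapped. The fitted log2 change of Tpi1 was -0.50 ± 0.14 (edgeR, adjusted p = 0.146). Aldoc, an aldolase present at only 3.51 CPM per kilobase in LRCs against 163 for Aldoa, gave 12.6, 7.36 and 14.4 CPM in LRCs and 17.9, 22.5 and 28.1 CPM in non-LRCs, without overlap. Its fitted log2 change was -1.02 ± 0.30 (edgeR, adjusted p = 0.153). The major aldolase Aldoa, at 472 to 837 CPM in LRCs and 488 to 627 CPM in non-LRCs, had a fitted log2 change of 0.08 ± 0.17 and different signs between experiments.

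Pfkp and Ldhb ran the other way. Pfkp encodes the platelet type of phosphofructokinase, the enzyme of the committed step. It gave 515, 322 and 380 CPM in LRCs of experiments 1, 2 and 3, and 287, 239 and 203 CPM in non-LRCs. All LRC libraries lay above all non-LRC libraries. The fitted log2 change was 0.73 ± 0.16, or 1.65-fold (edgeR, adjusted p = 0.0887). The liver and muscle types of the same enzyme did not share this pattern, with fitted log2 changes of -0.16 ± 0.26 for Pfkl and -0.12 ± 0.24 for Pfkm. Of the 50-base windows of Pfkp, 17.1% also occur in transcripts of the neighbouring gene Pitrm1.

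Ldhb, the lactate dehydrogenase subunit that prevails in oxidative tissue, gave 11.3, 24.4 and 17.6 CPM in LRCs. In non-LRCs it gave 6.44, 5.52 and 9.40 CPM. The populations did not overlap, and the log2 change was 0.80, 2.14 and 0.90 in the 3 experiments. In the fit it was 1.27 ± 0.37, or 2.42-fold (edgeR, adjusted p = 0.153).

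**Figure D2:**
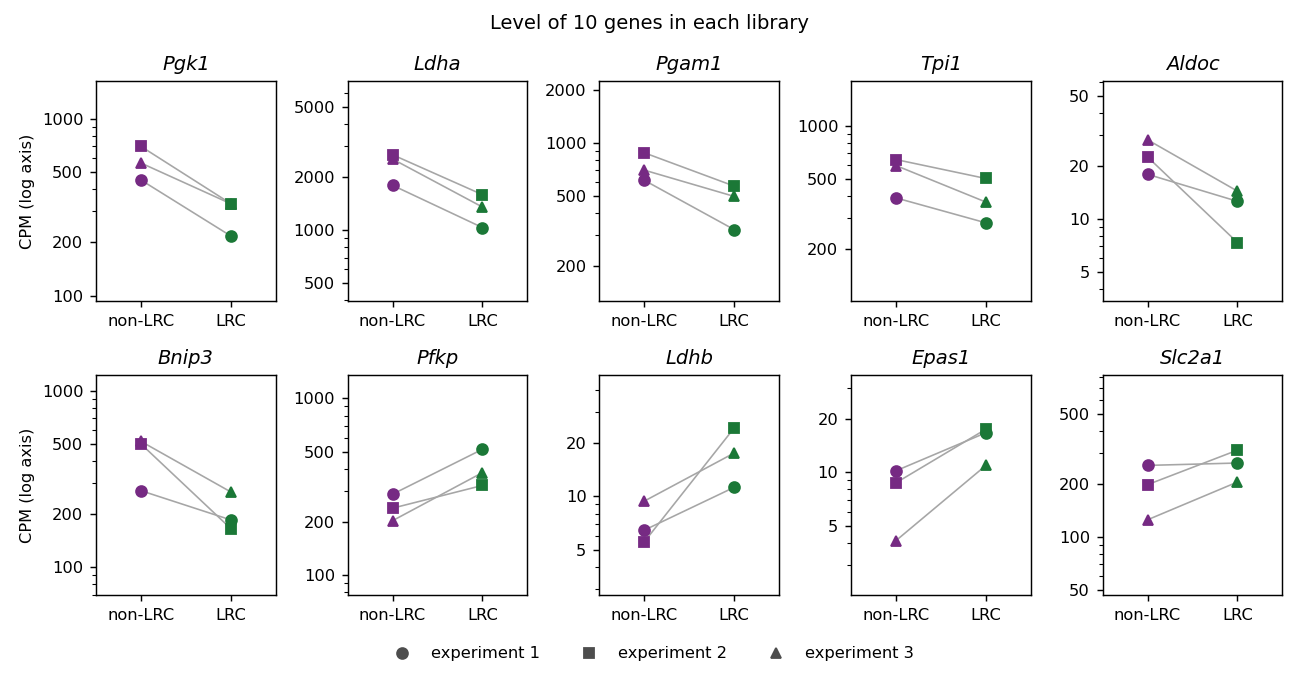
CPM on a log axis for 10 genes in each library, with lines joining the LRC and non-LRC libraries of an experiment. For Pgk1, Ldha, Pgam1, Aldoc and Bnip3 all LRC points lie below all non-LRC points, and for Pfkp, Ldhb and Epas1 all lie above.

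The other 11 glycolytic enzymes, Aldoa, Pfkl and Pfkm included, had an unadjusted p above 0.05. Hexokinases trap glucose in the cell. Hk1 was at 178 to 420 CPM in LRCs and 191 to 249 CPM in non-LRCs, with a fitted log2 change of 0.35 ± 0.19. Hk2 was at 37.3 to 74.9 CPM and 26.7 to 62.8 CPM, with a fitted log2 change of 0.14 ± 0.21. For both, the experiments differed in sign. Gpi1, glucose-6-phosphate isomerase, had a fitted log2 change of 0.18 ± 0.15 and Gapdh, the oxidising step between Tpi1 and Pgk1, one of -0.33 ± 0.18. Gapdh shares 82.5% of its windows with transcripts of 222 other annotated genes. Pkm, pyruvate kinase, the last ATP-yielding step, differed little, at 2158, 2167 and 2082 CPM in LRCs and 2051, 2345 and 2776 CPM in non-LRCs. The populations overlapped, and its fitted log2 change was -0.15 ± 0.16. Of the windows of Pkm, 34.4% also occur in transcripts of other genes.

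Enolases make phosphoenolpyruvate, the substrate of pyruvate kinase. Eno1 was counted at only 3.63 to 13.3 CPM over all libraries, which cannot be read as its abundance because 72.2% of its windows occur in the copy Eno1b or in other genes. Its fitted log2 change was -0.56 ± 0.45. Eno2, the neuronal type, was at 1.61 to 9.33 CPM over all libraries, with log2 changes of 1.65, -0.96 and 1.98. Eno3, the muscle type, was at 4.49 to 10.1 CPM, with a fitted log2 change of -0.57 ± 0.35. Muscle markers summed to 18.5 to 31.3 CPM in LRCs and to 54.0 to 72.2 CPM in non-LRCs, without overlap. All 10 of the 21 muscle markers that could be tested had a fitted log2 change below 0. Of these, 1, Cav3, fell in LRCs (edgeR, adjusted p = 0.044), where 0.379% of all genes tested did. Much of the sum in non-LRCs was Cav3 and Tnni2. Among defining muscle genes, Acta1 was at 0.154 to 1.34 CPM in LRCs and 1.07 to 2.94 CPM in non-LRCs, and Des at 0 to 1.56 CPM in LRCs and at 1.81 CPM or more in non-LRCs. Myh2 and Myog were at 0 in all 6 libraries and Ckm in 5 of 6. The part of these markers in the value of Eno3 was not tested.

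Along the pathway, the 9 enzymes from hexokinase to triosephosphate isomerase had a median fitted log2 change of 0.08, with 4 lower and 5 higher. The 7 enzymes from Gapdh to pyruvate kinase had a median of -0.56, with 6 lower and 1 higher. That median is the value of Eno1, to which the reservation above applies. Of these 7, 2 were lower at an unadjusted p below 0.05 (edgeR) and 0 were higher. Of all 13728 genes tested, 7690 had a fitted log2 change below 0. The division of the pathway at Gapdh was chosen after the values were seen. Over all 18 enzymes the median was -0.16, with 11 lower and 7 higher, beside -0.10 for all genes tested. Without experiment 3 the median was -0.01. The summed level of the 18 enzymes was 6037, 7533 and 6409 CPM in LRCs and 7015, 9264 and 8883 CPM in non-LRCs. The sum was lower in LRCs in each experiment, and Ldha and Pkm were its largest parts. Because many of these enzymes share windows with other genes, the absolute sum is uncertain.

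Slc2a1 (GLUT1) carries glucose into the cell. It was the most abundant of the 4 transporters per length of merged exons, at 73.9 CPM per kilobase in LRCs and 54.9 in non-LRCs. It gave 262, 310 and 205 CPM in LRCs and 254, 198 and 125 CPM in non-LRCs. It was slightly higher in LRCs in experiment 1 and clearly so in the other 2, and the populations overlapped. The fitted log2 change of 0.47 ± 0.18 did not pass (edgeR, adjusted p = 0.248). Slc16a3 (MCT4), which exports lactate, gave 87.1, 86.8 and 82.1 CPM in LRCs and 112, 101 and 141 CPM in non-LRCs. Without overlap between populations, its fitted log2 change of -0.45 ± 0.17 did not pass either (edgeR, adjusted p = 0.227). Slc16a1 (MCT1), which moves lactate in both directions, was lower in LRCs by a fitted log2 change of -0.23 ± 0.13. Slc2a3 (GLUT3) was at 3.74, 0 and 5.49 CPM in LRCs and 3.85 to 6.30 CPM in non-LRCs. The 0 was in the shallowest library, where 3 counts, an upper limit for a count of 0 under random sampling of reads alone, correspond to 0.143 CPM. In that library 1731 of the tested genes were at 0, so the 0 cannot be read as absence of Slc2a3. The 4 transporters had a median fitted log2 change of -0.34, with 3 lower and 1 higher.

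The kinases of the regulatory group set how much sugar enters the pathway and how much pyruvate leaves for the mitochondrion. Pdk enzymes switch off pyruvate dehydrogenase. Pdk3 gave 35.6, 27.7 and 43.5 CPM in LRCs and 42.2, 53.3 and 56.4 CPM in non-LRCs. Each experiment gave a lower value in LRCs, with a small overlap between populations and a fitted log2 change of -0.52 ± 0.21 (edgeR, adjusted p = 0.259). Pdk4, which is known to respond to fasting and fatty acids, was higher in LRCs in each experiment, by 1.64, 0.30 and 0.36 on the log2 scale. Its level was 27.3, 32.5 and 15.4 CPM in LRCs and 8.71, 26.4 and 12.0 CPM in non-LRCs, and the fitted log2 change was 0.76 ± 0.34 (edgeR, unadjusted p = 0.0637). Pdk1, a known HIF target, had a fitted log2 change of -0.40 ± 0.22, and it was lower in LRCs in experiments 2 and 3 but not in 1. Pdk2 had 0.382 CPM in the LRC library of experiment 2 and 3.01 to 7.09 CPM in the other libraries, and its fitted log2 change of -0.39 had an SE of 1.04.

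Pfkfb enzymes make and remove fructose 2,6-bisphosphate, the activator of phosphofructokinase. Pfkfb3 prevailed among them, with 8.43 CPM per kilobase in LRCs and 6.78 in non-LRCs. Its level was 62.2, 45.1 and 83.9 CPM in LRCs and 47.5, 46.9 and 59.4 CPM in non-LRCs. The populations overlapped, with a fitted log2 change of 0.28 ± 0.18. Pfkfb2 had a fitted log2 change of 0.34 ± 0.29 and Pfkfb4 one of -0.01 ± 0.57. Pfkfb1 was at most 4.11 CPM in any library, with a fitted log2 change of -1.05 ± 0.85. The median over the 8 kinases was -0.20, with 5 lower and 3 higher, and it turned to 0.10 without experiment 2 and to 0.03 without the experiment in the model.

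Bnip3 encodes a mitochondrial protein that drives mitophagy and is a known HIF-1α target. It measured 185, 165 and 267 CPM in LRCs and 271, 499 and 516 CPM in non-LRCs. The highest LRC library lay just below the lowest non-LRC library. The log2 change was -0.55, -1.59 and -0.95 in the 3 experiments and the fitted value -1.03 ± 0.22, or 2.04-fold higher in non-LRCs (edgeR, adjusted p = 0.0882). Of its windows, 62.4% occur in transcripts of other genes. Epas1, which encodes HIF-2α, was higher in LRCs, at 16.7, 17.5 and 10.9 CPM against 10.2, 8.72 and 4.10 CPM in non-LRCs. The populations did not overlap, and the fitted log2 change was 1.04 ± 0.30 (edgeR, adjusted p = 0.148).

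Hif1a, which encodes HIF-1α, was far more abundant than Epas1 per length of merged exons. The levels were 224 against 2.70 CPM per kilobase in LRCs and 234 against 1.37 CPM per kilobase in non-LRCs. Hif1a measured 1612, 726 and 1622 CPM in LRCs and 1290, 1355 and 1488 CPM in non-LRCs. The LRC library of experiment 2 was low and the other 5 libraries lay close together. Its fitted log2 change was -0.15 ± 0.26. Among the prolyl hydroxylases, Egln1 had a fitted log2 change of -0.01 ± 0.19, at 59.2 to 67.0 CPM in LRCs and 55.1 to 82.8 CPM in non-LRCs. Egln2 was higher in LRCs in each experiment, at 23.6, 15.6 and 16.0 CPM against 14.9, 7.88 and 15.6 CPM, with a fitted log2 change of 0.56 ± 0.29. Egln3 did not exceed 1.53 CPM and Car9, the carbonic anhydrase often used as a mark of hypoxia, did not exceed 1.37 CPM in any library. Their fitted log2 changes were 0.40 ± 1.10 and 1.40 ± 2.16. The median over the 7 genes of this group was 0.40, with 3 lower and 4 higher, and it was -0.30 without experiment 1. The value 0.40 is that of Egln3 itself, and Egln3 and Car9, both near the floor, were among those higher.

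The balance of related genes within a library does not depend on how libraries are scaled, so it was computed for 7 pairs of paralogs as the log2 ratio of CPM per kilobase. Ldha over Ldhb was 5.45, 4.95 and 5.19 in LRCs of experiments 1, 2 and 3. In non-LRCs it was 7.05, 7.84 and 6.99. The ratio was lower in LRCs in each experiment and the populations did not overlap: Ldha exceeded Ldhb by 30.9-fold to 43.6-fold in LRCs and by 128-fold to 229-fold in non-LRCs. Of the 50-base windows of Ldha and Ldhb, 16.6% and 27.0% also occur in transcripts of other genes, so that the absolute ratio is uncertain. With 3 pairs, the smallest p that an exact paired permutation test allows is 0.25, so none is given.

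For Pdk1 over Pdk4 the log2 ratio was 0.76, -0.54 and 1.19 in LRCs and 2.22, 0.58 and 2.11 in non-LRCs. Each experiment gave a lower ratio in LRCs, with overlap. Pfkl over Pfkp gave -1.70, -2.09 and -1.17 in LRCs and -1.44, -1.02 and 0.15 in non-LRCs, again lower in each experiment with overlap. Eno1 over Eno2 was also lower in each, by -1.38, -0.65 and -2.41, and the populations did not overlap, at -0.31, 0.33 and 0.44 in LRCs and 1.07, 0.98 and 2.85 in non-LRCs. The reservation on Eno1 given above holds here too. Hk1 over Hk2 differed in sign between experiments. Slc16a1 over Slc16a3 was slightly higher in LRCs in each experiment, by 0.10, 0.08 and 0.48. Slc2a1 over Slc2a3 could be computed in 5 libraries, and was higher in LRCs by 0.60 and 0.91 in experiments 1 and 3.

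**Figure D3:**
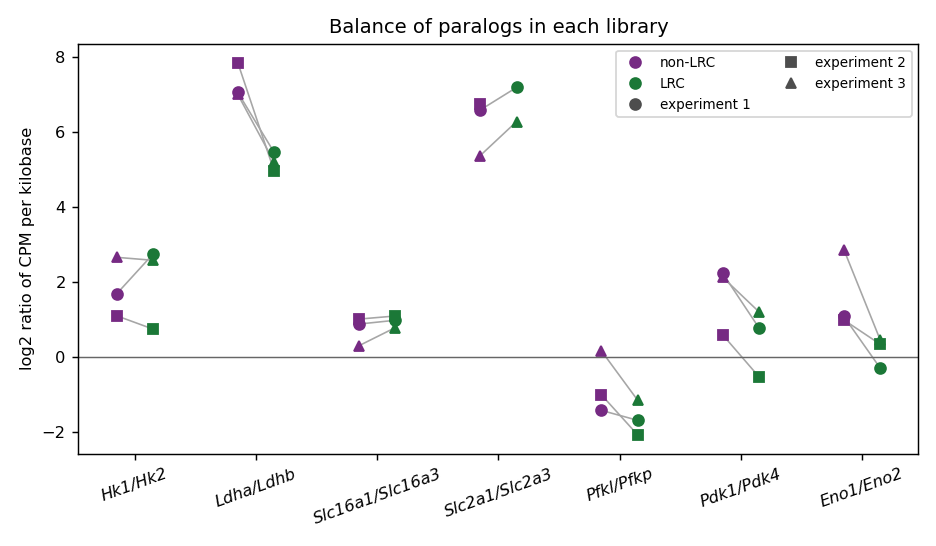
Log2 ratio of the CPM per kilobase of 2 paralogs on the vertical axis, in each library, with lines joining the libraries of an experiment. The ratio of Ldha to Ldhb separates the populations, at 4.95 to 5.45 in LRCs and 6.99 to 7.84 in non-LRCs, as does that of Eno1 to Eno2. Slc2a1/Slc2a3 has no point for the LRC library of experiment 2, where Slc2a3 had a count of 0.

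Genes next to the 37 were counted in 5 further lists. At an adjusted p below 0.05, edgeR called 0.379% of all genes tested lower in LRCs and 0.903% higher. Among 27 other genes of glycolysis and sugar transport, 18 could be tested, with a median fitted log2 change of -0.42, and 1 fell in LRCs. This was Slc2a5, the fructose transporter GLUT5, at 3.82, 4.73 and 14.1 CPM in LRCs and 16.6, 35.5 and 40.1 CPM in non-LRCs. All LRC libraries lay below all non-LRC libraries, with a fitted log2 change of -2.16 ± 0.33 (edgeR, adjusted p = 0.0497). Among 10 genes of pyruvate entry into the mitochondrion, with a median of -0.23, 1 fell. Mpc1, a subunit of the mitochondrial pyruvate carrier listed in the count table as Brp44l, was at 39.6, 89.8 and 78.1 CPM in LRCs and at 93.3, 178 and 153 CPM in non-LRCs. It did not overlap either, with a fitted log2 change of -1.06 ± 0.14 (edgeR, adjusted p = 0.0392). Its partner Mpc2 had a fitted log2 change of -0.22 ± 0.20.

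Among 17 genes of glycogen and the pentose phosphate pathway, with a median of -0.30, 1 fell. Pygl, a glycogen phosphorylase that frees glucose units from glycogen, was at 47.1, 34.7 and 67.0 CPM in LRCs and 94.0, 66.0 and 130 CPM in non-LRCs. The populations overlapped by a single pair of libraries, whereas the change within each experiment was nearly constant at -0.995, -0.930 and -0.952. Its fitted log2 change was -0.96 ± 0.14 (edgeR, adjusted p = 0.0484). In this list 7 of 17 genes were lower at an unadjusted p below 0.05 and 0 were higher, where 9.53% and 8.89% of all genes tested were.

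Among 26 HIF targets outside glycolysis, 25 could be tested, with a median of -0.12 and with 1 gene called lower and 1 higher. Car12, a membrane carbonic anhydrase that handles acid at the cell surface, was at 146, 82.4 and 324 CPM in LRCs and 456, 330 and 618 CPM in non-LRCs, just without overlap. Its fitted log2 change was -1.52 ± 0.23 (edgeR, adjusted p = 0.0488). Tfrc, the transferrin receptor for iron uptake, was at 343, 243 and 274 CPM in LRCs and 154, 127 and 133 CPM in non-LRCs. All LRC libraries lay above all non-LRC libraries, and the fitted log2 change was 1.05 ± 0.14 (edgeR, adjusted p = 0.0372). At an unadjusted p below 0.05 this list split into 6 lower and 5 higher of 25, beside the shares of 9.53% and 8.89% over all genes tested. DESeq2 called 6 of the 25 lower and 4 higher, where it called 6.15% and 6.16% of all genes. Larger changes among genes that edgeR did not call went both ways. Stc2 and Higd1a were lower, with fitted log2 changes of -2.64 ± 0.44 and -1.01 ± 0.17. Kdm3a and Angptl4 were higher, with 0.87 ± 0.18 and 0.87 ± 0.14. Vegfa, the angiogenic factor, was also higher, at 173 to 189 CPM in LRCs and 123 to 170 CPM in non-LRCs. Its fitted log2 change was 0.37 ± 0.14 (edgeR, adjusted p = 0.257).

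Among 14 other genes of the HIF pathway, 12 could be tested, with a median of -0.14, and 0 passed in edgeR. At an unadjusted p below 0.05, 3 of 12 were lower and 2 higher, beside 9.53% and 8.89% of all genes tested. DESeq2 called Tceb2 lower (adjusted p = 0.0169) and Cited2, which encodes a competitor of HIF for p300, higher (adjusted p = 0.0017), where it called 6.15% and 6.16% of all genes. Cited2 had a fitted log2 change of 0.58 ± 0.13 in edgeR. The lowest fitted value was that of Tceb2, which encodes elongin B of the complex that degrades HIF, with a fitted log2 change of -0.63 ± 0.16. The highest was that of Ep300, which encodes the HIF coactivator p300, with 0.71 ± 0.23, and it passed in neither tool. The calls of Slc2a5, Mpc1, Pygl, Car12 and Tfrc were all lost without experiment 1 and without the experiment in the model, and those of Mpc1 and Pygl also without experiment 3.

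**Figure D4:**
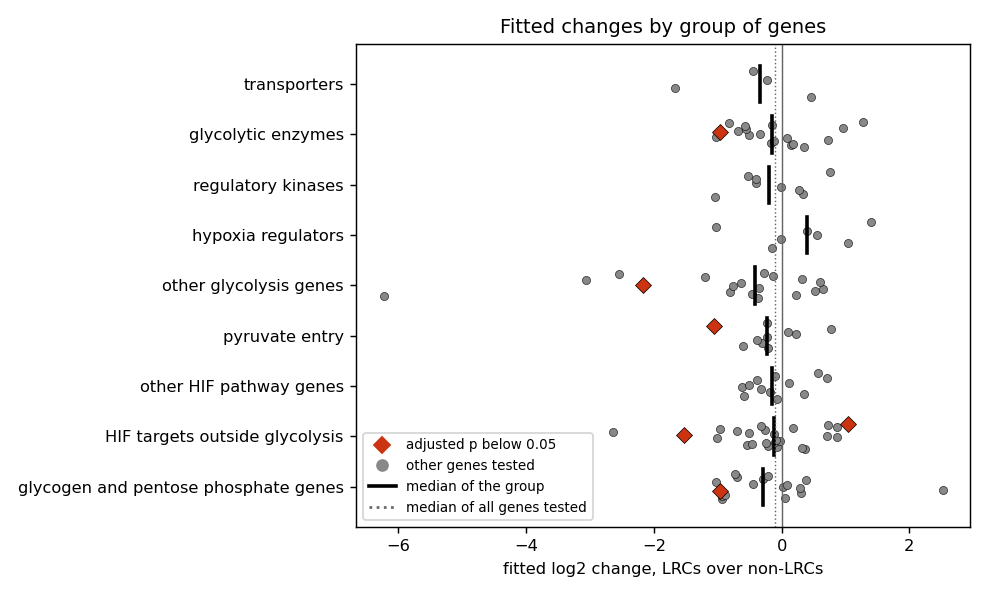
Fitted log2 change of each gene tested, LRCs over non-LRCs, by group, with a bar for the median of the group and a dotted line for the median of all genes tested. The 4 upper groups hold the 37 genes and the 5 lower ones the neighbouring lists, and red diamonds mark the 6 genes with an adjusted p below 0.05.

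Markers of zones and cell types moved between the same libraries. Over all genes tested, 26% were lower in LRCs in all 3 experiments and 20.4% were higher. At an unadjusted p below 0.05, 9.53% were lower. At an adjusted p below 0.05, edgeR called 0.379% lower and 0.903% higher, and DESeq2 called 6.15% lower and 6.16% higher. The 12 chondrocyte markers had a median fitted log2 change of -0.50, with 10 lower in LRCs in all 3 experiments and 6 lower at an unadjusted p below 0.05. Among them 0 passed in edgeR, and DESeq2 called 4 lower. Osteoblast markers moved in both directions, with a fitted log2 change below 0 for 4 of 7 and above 0, up to 2.94, for 3. Of the 7, 2 were higher in LRCs in all 3 experiments. Only Col1a1 passed in edgeR, higher in LRCs at 154, 53.0 and 113 CPM against 33.7, 8.20 and 23.3 CPM (adjusted p = 0.0151). The Col1a1 locus carries the TRE-H2B-GFP transgene, and the part of the transgene in this rise was not tested. Bglap, Bglap2 and Sp7 were lower in LRCs in all 3 experiments and called by DESeq2 but not by edgeR, with fitted log2 changes of -1.14 ± 0.29, -1.48 ± 0.37 and -1.25 ± 0.43. Of 8 hypertrophic markers, 2 fell in LRCs and 0 rose. Panx3 was at 8.86, 6.79 and 60.1 CPM in LRCs and 178, 176 and 494 CPM in non-LRCs (edgeR, adjusted p = 0.0176), and Pth1r also fell (edgeR, adjusted p = 0.0228). Col10a1, which defines hypertrophic chondrocytes, was at 1.93, 0.143 and 76.0 CPM in LRCs and 12.2, 15.7 and 264 CPM in non-LRCs. The list summed to 979 to 2040 CPM in LRCs and 1404 to 3601 CPM in non-LRCs. All 8 had a fitted log2 change below 0, and 5 of 8 were lower at an unadjusted p below 0.05, where 9.53% of all genes tested were. Of the 8 superficial articular markers 5 rose in LRCs, with Prg4 at 1017, 109 and 869 CPM against 29.5, 3.22 and 6.36 CPM (edgeR, adjusted p = 0.0175). The part of these markers in the changes of Pgk1, Slc2a5, Mpc1, Pygl, Car12 and Tfrc was not tested.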

How the data were processed

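RNA from 6 sorted libraries was amplified with the SMARTer kit and sequenced by the authors as 50-cycle single-end reads, which were aligned to mm10 with TopHat2 2.0.13 and Bowtie2 2.2.1. HTSeq counted non-ambiguously mapped reads. The gene annotation and strand setting are not given in the sources used here. The authors deposited raw counts per gene, which were the input of every result. They also deposited the same counts scaled by size factors (a normalized signal, from DESeq2) and log2 values from the rlog transformation. Both were used only to check that they follow the counts. All columns were mapped to a sample.

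Counts were tested in R 4.3.3 with edgeR 4.0.16 (TMM, filterByExpr with a minimum count of 10, quasi-likelihood test), with the experiment as a term and Benjamini-Hochberg adjustment over all 13728 genes tested. Libraries were paired by the experiment numbers in the labels. Deviations from the group means correlated at 0.197, 0.288 and 0.336 between libraries of the same number and at -0.274 to 0.128 otherwise. The 0.128 was between LRCs of experiment 1 and non-LRCs of experiment 3. Such deviations cancel within a group, so positive values for matched libraries push the others down, and the contrast overstates the pairing. The fit was also run on counts simulated from its own fitted means and dispersions, with 200 changed genes. Such counts check the code and cannot show the error rate in the real libraries. No library was a copy of another (chi-square per gene at least 185). P-values measure the spread between 3 pairs of pooled littermates. Log2 CPM values used a prior count of 2. Positions, merged exon lengths and windows of 50 bases shared between transcripts came from GENCODE vM21, and promoter windows from RefSeq.

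The 37 genes and all lists were chosen with earlier results of these data known. Full values are given for members with an adjusted or unadjusted p below 0.05, and in each further list for genes with an adjusted p below 0.05, or else for the lowest and highest tested. Mpc2, Vegfa, Stc2, Higd1a, Kdm3a, Angptl4, Pdk4, Cited2, the marker genes and the genes given by their level were named in addition, after their values were seen. Of the 7 marker lists, osteoblast markers summed to 1382 to 3146 CPM in LRCs and 971 to 2167 CPM in non-LRCs, and blood cell markers to 9.33 to 29.4 CPM and 13.2 to 22.6 CPM. DESeq2 1.42.0 and limma 3.58.1 served as alternatives.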

Additional observations from a re-analysis of the deposited data

How the results depend on the processing

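The number of the 37 genes called, 1 in the model with the experiment as a term, was 0 with no replicate block (adjusted p of Pgk1 0.326), 9 with DESeq2, 7 with limma-voom, 5 among genes with at least 10 counts in every library, and 0 to 4 when an experiment was left out: 0 without experiment 1, 4 without experiment 2 (Pfkp, Pgk1, Eno2 and Ldha) and 1 without experiment 3. It was 1 with DESeq2 size factors, with no filter and after thinning to the smallest total. Over all genes, edgeR called 176 (1.28%) with the block and 1 (0.00728%) without it, limma-voom 1361 (9.91%) and DESeq2 1692 (12.3%). With at least 10 counts in every library, edgeR called 751 (6.75%), and 33 of the 37 genes were tested. It called 1.45% with DESeq2 size factors, 1.44% with no filter and 1.67% after thinning. Without experiments 1, 2 and 3 it called 35 (0.254%), 782 (5.37%) and 223 (1.59%). The cause of these differences was not tested. The 12 members with an unadjusted p below 0.05 kept their sign under all 10 alternatives, Pgk1 between -1.04 and -0.91 with adjusted p between 4.79e-08 and 0.326. The 12 were chosen from the same counts and already had 1 sign in all 3 experiments, so the kept sign is no separate support. The median of the transporters, -0.34, was -0.23 with at least 10 counts in every library, where Slc2a3 is left out, and -0.36 to -0.23 when an experiment was left out. That of the hypoxia regulators, 0.40, was -0.30 to 0.60 when an experiment was left out, and -0.01 with at least 10 counts in every library. The median of the enzymes, -0.16, was -0.22 to -0.01 and that of the kinases, -0.20, was -0.22 to 0.10 when an experiment was left out, the latter 0.03 with no replicate block. With mean transcript length in place of merged exon length, the mean log2 ratio in LRCs became 3.38 for Hk1/Hk2 (from 2.01), 6.09 for Ldha/Ldhb (from 5.19), -0.84 for Slc16a1/Slc16a3 (from 0.94), 5.93 for Slc2a1/Slc2a3 (from 6.72) and 0.70 for Eno1/Eno2 (from 0.15). Differences between LRCs and non-LRCs in these ratios do not depend on the length. The values of Car9, Egln3, Pdk2, Slc2a3 and Pfkfb1 rest on 0 to 15 counts in the shallowest library, and the cause of the low counts there was not tested.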
